A study of Homo sapiens with 6 samples.

Results

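The genes described here are 10 members of the calcineurin pathway that had a row in the deposited RNA-seq tables of ARPE-19, a spontaneously arisen line of human retinal pigment epithelium (RPE). They are RCAN1, RCAN2, RCAN3, PPP3CA, PPP3CB, PPP3CC, PPP3R1, NFATC1, NFATC3 and NFATC4, found by symbol among 20461 entries with an Ensembl gene identifier, and all 10 were among the 13645 genes that passed the filter on low counts. Both groups carried a lentivirus at a multiplicity of infection of 10, were transduced for 48 h and were then selected with puromycin at 4 µg/ml. They were held in 37.5 mM glucose for 48 h before RNA extraction. The control group carried a control lentivirus (3 libraries) and the PDZK1 group carried a lentivirus that overexpresses PDZK1, a PDZ domain scaffold protein (3 libraries). The promoter that drives PDZK1 in the vector, and whether the libraries of a group came from separately transduced cultures, are not given in the sources used here. The set was chosen by the values of this same contrast, namely the higher RCAN2 level in the PDZK1 group, and its relatives were added around it, so the differences of the 10 members between the groups are given as a description, with no p-value, and the count of members past a threshold supports nothing.

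Calcineurin is a protein phosphatase that is switched on by calcium. It consists of a catalytic A subunit, made from PPP3CA, PPP3CB or PPP3CC, and a regulatory B subunit, made in most tissues from PPP3R1 and in the testis from PPP3R2. Active calcineurin removes phosphates from the NFAT transcription factors NFATC1 to NFATC4, which then enter the nucleus, and kinases such as GSK3B and DYRK1A reverse this step. The RCAN proteins bind calcineurin and are best known as its inhibitors, and a short transcript of RCAN1 is itself a classical NFAT target. In RPE cells, calcium signals take part in fluid transport and in the handling of shed photoreceptor tips.

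PDZK1 was counted at 19, 18 and 23 reads in control replicates 1, 2 and 3 and at 3020, 2541 and 2828 in PDZK1 replicates 1, 2 and 3, so each library held the PDZK1 level of its label. Total counts per library ran from 27970618 to 32804567, and the upper limit behind a count of 0 (3 counts, 95% confidence) stood for 0.0915 to 0.109 CPM (counts scaled to library size) for counting error only. Control replicate 3, the shallowest library, lay at an end of its group in CPM for 77.4% of the 13645 tested genes and for 10 of the 10 members. In a group of 3 libraries, 2 lie at an end for each gene without ties, so a large share is usual. The same share was not computed for the other libraries. Of 15 RPE markers, 8 reached at least 1 CPM in every library, while RPE65 and TTR were at 0 in all 6. BEST1 was at 358 CPM in PDZK1 replicate 1 and at 4.32 to 5.60 CPM in the other 5 libraries. Of 9 leucocyte and endothelial markers, 1 (CSF1R) reached 1 CPM in every library, PTPRC, CD3D, CD3E and CDH5 were at 0 in all 6, and the summed level was 1.70 to 3.23 CPM in control and 3.03 to 4.03 CPM in PDZK1 libraries.

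RCAN1, RCAN2 and RCAN3 are paralogues, so the sequences are shown first to make clear which reads tell them apart. In their coding sequences (GENCODE release 29, lengths of 831, 729 and 723 bases), 65.3% of aligned bases were identical between RCAN1 and RCAN2, 67.8% between RCAN1 and RCAN3 and 68.5% between RCAN2 and RCAN3. The longest run of identical bases in any pair was 14. The 60-base coding window (within 1 exon) in which RCAN1 and RCAN3 were most like RCAN2 is printed 5′ to 3′ on the coding strand, with capitals where the 3 genes are not all alike, and 40 of the 60 bases were alike in all 3. It lies at chr21:34523606-34523665 in exon 2 of RCAN1 (minus strand, ENST00000381135.7), at chr6:46248792-46248851 in exon 3 of RCAN2 (minus strand, ENST00000306764.11) and at chr1:24531263-24531322 in exon 3 of RCAN3 (plus strand, ENST00000374395.8), all on GRCh38.
RCAN1: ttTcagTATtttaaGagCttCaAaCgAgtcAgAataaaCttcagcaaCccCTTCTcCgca
RCAN2: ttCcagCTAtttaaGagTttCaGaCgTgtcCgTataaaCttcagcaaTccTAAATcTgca
RCAN3: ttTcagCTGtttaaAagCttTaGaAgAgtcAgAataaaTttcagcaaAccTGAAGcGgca
Even here, 45 bases of RCAN1 and 46 of RCAN3 matched RCAN2. Over whole transcripts, 0 of the 3708 stretches of 31 bases in RCAN2 occurred in a transcript of any other annotated gene.

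RCAN2 (ENSG00000172348, chr6:46220736-46491972, minus strand) encodes a calcineurin regulator known from brain, heart and skeletal muscle. Its counts were 43, 54 and 23 in control replicates 1, 2 and 3 and 295, 209 and 313 in PDZK1 replicates 1, 2 and 3. Scaled to library size, these were 1.33, 1.75 and 0.834 CPM in control and 9.21, 6.38 and 9.87 CPM in PDZK1 libraries. The lowest PDZK1 library stood well above the highest control library, and the control libraries themselves lay above the level of 3 counts. The mean was 1.30 ± 0.458 CPM in control and 8.48 ± 1.85 CPM in PDZK1 libraries (SD, n = 3), a fold change of 6.45 with a 95% interval of 4.21 to 9.89 (log2 fold change 2.69, SE 0.271). In bulk RNA, more cells expressing a gene and more RNA per cell cannot be told apart.

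Under 14 alternatives the RCAN2 difference lay between 1.28 and 2.95 on the log2 scale, which describes its size only, since RCAN2 was picked for this difference. The lowest value came from log2(FPKM + 1), a scale on which low genes are compressed (FPKM, fragments scaled by transcript length and library size), and the highest from leaving out control replicate 2. Without control replicate 3, the library with the fewest RCAN2 reads, the log2 fold change was 2.46. An annotated RNA gene on the opposite strand, AL359633.1, overlaps RCAN2 and has no row in the tables.

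**Figure D1:**
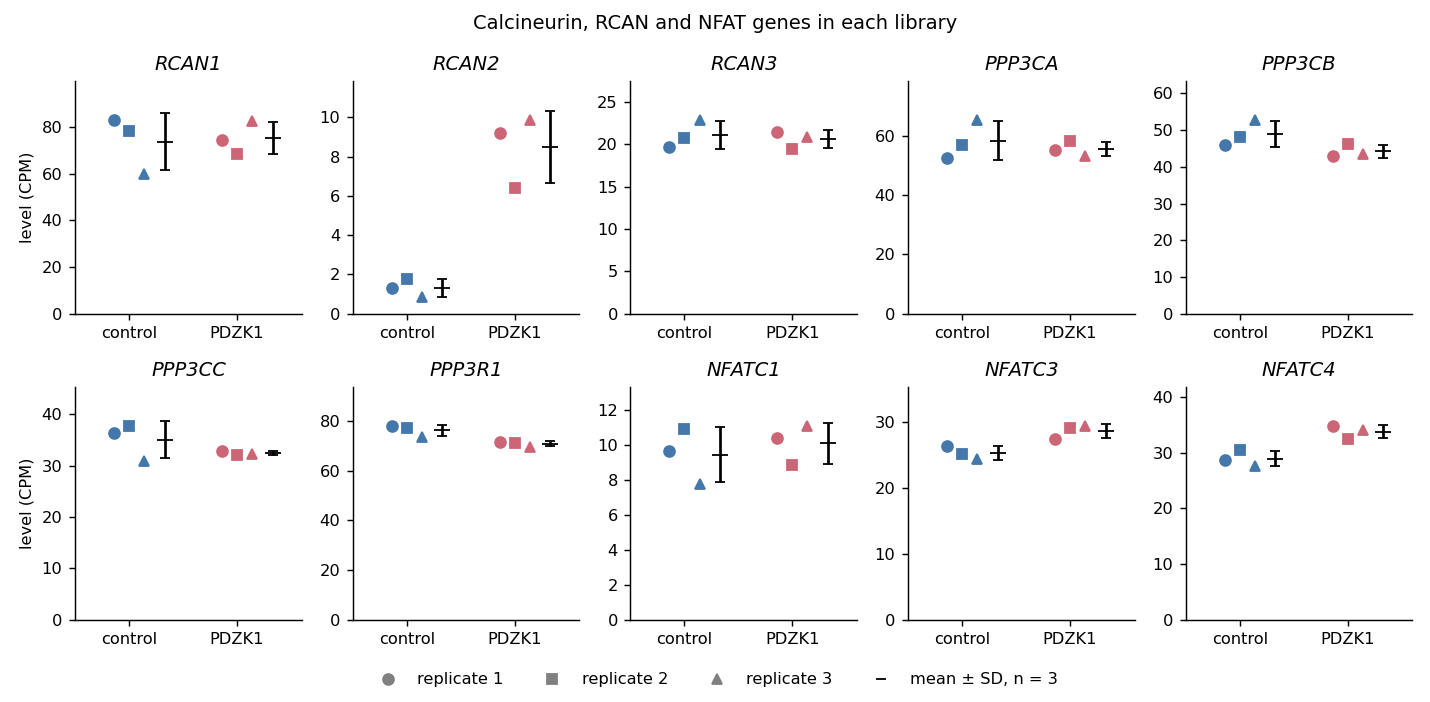
Level of each of the 10 members in CPM in each library, one panel per gene, with control libraries in blue, PDZK1 libraries in red, marker shapes for replicates and black bars for mean ± SD (n = 3). Each vertical axis starts at 0. RCAN2 was at 0.834 to 1.75 CPM in control and 6.38 to 9.87 CPM in PDZK1 libraries, whereas the other panels show groups that overlap or lie close together.

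RCAN1 (ENSG00000159200, chr21:34513142-34615142, minus strand), the best-studied calcineurin inhibitor of the family, was at 83.2, 78.2 and 60.0 CPM in control replicates 1, 2 and 3 and at 74.7, 68.7 and 82.7 CPM in PDZK1 replicates 1, 2 and 3. The groups overlapped throughout, at 73.8 ± 12.2 CPM in control and 75.4 ± 7.05 CPM in PDZK1 libraries. On the log2 scale the fold change came to 0.03 (SE 0.137, 95% interval −0.31 to 0.37), and it was −0.10 without control replicate 3 and −0.04 without PDZK1 replicate 3. Counts per gene do not separate the short transcript of RCAN1 from its other transcripts. RCAN3 (ENSG00000117602, chr1:24502351-24541040, plus strand) was at 19.7, 20.7 and 22.9 CPM in control replicates 1, 2 and 3 and at 21.5, 19.4 and 20.9 CPM in PDZK1 replicates 1, 2 and 3. These groups overlapped as well, with a log2 fold change of −0.03 (SE 0.0776, 95% interval −0.21 to 0.14) on counts and 0.04 on log2(FPKM + 1). Of the 31-base stretches of RCAN3, 17.8% also occur in other annotated genes, mainly in AL445686.2 on the opposite strand.

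Per transcript length, RCAN2 remained a small share of the RCAN transcripts in both groups. Its FPKM were 0.352, 0.493 and 0.215 in control and 2.51, 1.72 and 2.66 in PDZK1 replicates 1, 2 and 3. RCAN2 made up 1.01%, 1.51% and 0.847% of the summed RCAN FPKM in control and 7.37%, 5.66% and 7.20% in PDZK1 replicates 1, 2 and 3 (1.12% ± 0.344 and 6.74% ± 0.942, SD, n = 3). RCAN1 accounted for 87.2% to 90.3% of that sum in control and 83.9% to 84.5% in PDZK1 libraries. By CPM the RCAN1 shares overlapped, at 79.8%, 77.7% and 71.7% in control and 70.9%, 72.7% and 72.9% in PDZK1 replicates 1, 2 and 3. The summed RCAN FPKM overlapped between the groups, at 34.7, 32.7 and 25.4 in control and 34.0, 30.3 and 37.0 in PDZK1 replicates 1, 2 and 3. The spread of that sum followed RCAN1. Within the groups, RCAN1 was lowest in control replicate 3 (22.1 FPKM) and in PDZK1 replicate 2 (25.6 FPKM).

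The catalytic subunits of calcineurin were present at like levels in FPKM and differed little between the groups. PPP3CA (ENSG00000138814, chr4:101023409-101348278), the alpha isoform that is abundant in brain, was at 52.4, 57.0 and 65.4 CPM in control and 55.1, 58.1 and 53.2 CPM in PDZK1 replicates 1, 2 and 3. The groups overlapped, with a log2 fold change of −0.07 (SE 0.079, 95% interval −0.25 to 0.11) that was 0.02 without control replicate 3. PPP3CB (ENSG00000107758, chr10:73436428-73496024), the widely expressed beta isoform, was at 46.0, 48.0 and 52.8 CPM in control and 43.0, 46.2 and 43.4 CPM in PDZK1 replicates 1, 2 and 3. Its highest PDZK1 library lay just above its lowest control library, and the fold change was 0.904 (95% interval 0.82 to 0.998). PPP3CC (ENSG00000120910, chr8:22440819-22541142), the gamma isoform known from testis, was at 36.3, 37.7 and 30.9 CPM in control and 32.8, 32.1 and 32.2 CPM in PDZK1 replicates 1, 2 and 3. Its PDZK1 libraries lay within the control range, with a log2 fold change of −0.11 (SE 0.0749, 95% interval −0.28 to 0.05).

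PPP3R1 (ENSG00000221823, chr2:68178857-68256237), the calcium-binding B subunit, was at 78.0, 77.0 and 73.7 CPM in control and 71.7, 71.2 and 69.7 CPM in PDZK1 replicates 1, 2 and 3. Every PDZK1 library was below every control library, by a small margin: the means were 76.3 ± 2.24 and 70.9 ± 1.04 CPM, with a log2 fold change of −0.11 (SE 0.0432, 95% interval −0.20 to −0.01). Of its 31-base stretches, 33.3% also occur in other annotated genes, most often in AC017083.2, which overlaps it on the opposite strand. PPP3R2, the B subunit gene of the testis, was at 0 counts in 5 libraries and at 3 counts in PDZK1 replicate 2, and was not tested.

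Among the catalytic genes, the shares of the summed FPKM were even and overlapped between the groups. PPP3CA made up 29.3% to 33.7% in control and 30.9% to 32.7% in PDZK1 libraries, PPP3CB 33.2% to 36.3% and 32.4% to 34.0%, and PPP3CC 30.0% to 37.5% and 33.3% to 35.9%. The sum itself was 42.2, 43.8 and 44.8 FPKM in control and 40.4, 41.4 and 39.4 FPKM in PDZK1 replicates 1, 2 and 3. In FPKM the sums of the groups did not overlap, by a small margin, while each catalytic gene alone did. In CPM the sums overlapped, at 135, 143 and 149 in control and 131, 136 and 129 in PDZK1 replicates 1, 2 and 3. Groups without overlap in CPM were found for 23.9% of all tested genes (12.3% lower in the PDZK1 group). The same share was not computed in FPKM. The ratio of summed RCAN to summed catalytic FPKM did overlap, at 0.822, 0.747 and 0.567 in control and 0.843, 0.733 and 0.937 in PDZK1 replicates 1, 2 and 3.

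**Figure D2:**
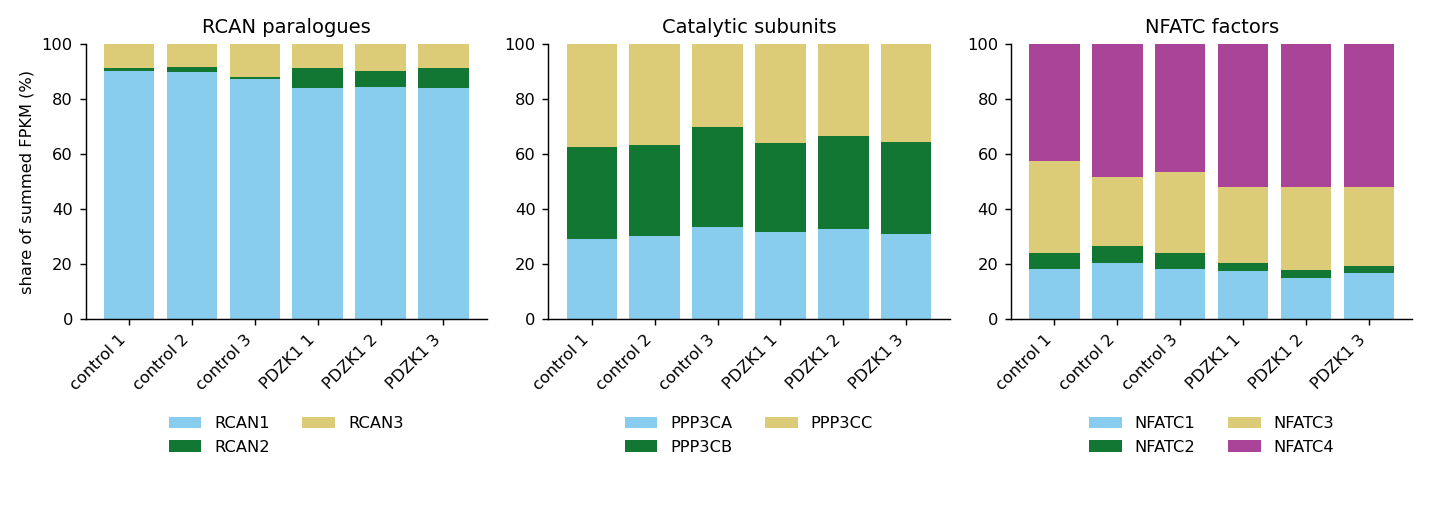
Share of each paralogue (%) in the summed FPKM of the RCAN genes, the calcineurin catalytic genes and NFATC1 to NFATC4, as a stacked bar for each of the 6 libraries. RCAN2 takes 0.847% to 1.51% in control and 5.66% to 7.37% in PDZK1 libraries, each catalytic gene takes 29.3% to 37.5%, and NFATC2 takes 5.77% to 6.17% in control and 2.83% to 3.22% in PDZK1 libraries.

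The NFAT members were all expressed, and NFATC3 and NFATC4 were slightly higher in the PDZK1 group. NFATC4 (ENSG00000100968, chr14:24365673-24379604), first known from heart and nervous tissue, was at 28.7, 30.4 and 27.7 CPM in control and 34.8, 32.4 and 34.1 CPM in PDZK1 replicates 1, 2 and 3. All PDZK1 libraries were above all control libraries, with means of 28.9 ± 1.36 and 33.8 ± 1.24 CPM and a log2 fold change of 0.22 (SE 0.0595, 95% interval 0.09 to 0.36). NFATC3 (ENSG00000072736, chr16:68084751-68229259), a widely expressed NFAT, was at 26.4, 25.1 and 24.4 CPM in control and 27.4, 29.1 and 29.4 CPM in PDZK1 replicates 1, 2 and 3. These libraries did not overlap either, with a log2 fold change of 0.18 (SE 0.0607, 95% interval 0.04 to 0.31).

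The NFATC3 difference was not seen in FPKM, where the values were 5.35, 3.66 and 3.56 in control and 4.20, 4.23 and 4.38 in PDZK1 replicates 1, 2 and 3. Control replicate 1 was the highest of all 6 libraries there. A gene's count divided by its FPKM grows with the length of transcript to which its reads were assigned. Relative to the median gene of each library, this ratio for NFATC3 was 1.45 in control replicate 1 and 1.92 to 2.02 in the other 5 libraries. Over 11842 genes, the highest library exceeded the lowest by a median factor of 1.04, against 1.39 for NFATC3. Of its 31-base stretches, 37.0% also occur in other annotated genes, mainly AC020978.5 on the opposite strand.

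NFATC1 (ENSG00000131196, chr18:79395856-79529325), known from lymphocytes, bone and heart valves, was at 9.66, 10.9 and 7.79 CPM in control and 10.4, 8.85 and 11.1 CPM in PDZK1 replicates 1, 2 and 3. The groups overlapped, with a log2 fold change of 0.10 (SE 0.142, 95% interval −0.22 to 0.42) that was −0.02 without control replicate 3 and −0.11 on log2(FPKM + 1). Its ratio of count to FPKM was 0.976 to 1.06 in control and 1.15 to 1.27 in PDZK1 libraries, so the 2 units differ between the groups for this gene. The individual transcripts behind these ratios were not analysed here.

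The remaining members of the NFAT family were measured but did not belong to the set. NFATC2 (ENSG00000101096, chr20:51386957-51562831), a main NFAT of lymphocytes, was at 7.55, 7.32 and 6.05 CPM in control and 4.03, 3.26 and 3.56 CPM in PDZK1 replicates 1, 2 and 3. It fell, with a log2 fold change of −0.95 (SE 0.149, edgeR adjusted p = 0.00872). The adjusted p ran from 0.00294 to 0.0576 when 1 library was left out, and the call ended without PDZK1 replicate 3 (0.0503) and without control replicate 2 (0.0576). On log2(FPKM + 1) with limma, the log2 fold change was −0.36 (adjusted p = 0.0881). NFAT5, the osmotic stress factor that is not a calcineurin substrate, was at 146 to 166 CPM with a log2 fold change of 0.05 (edgeR adjusted p = 0.699).

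As shares of the summed FPKM of NFATC1 to NFATC4, NFATC4 was the largest in both groups, at 42.6%, 48.4% and 46.6% in control and 52.0%, 52.1% and 52.0% in PDZK1 replicates 1, 2 and 3. NFATC3 made up 29.2% ± 4.28 in control and 28.7% ± 1.39 in PDZK1 libraries, and NFATC1 18.9% ± 1.33 and 16.3% ± 1.30. The summed level was 14.3 ± 1.93 FPKM in control and 14.9 ± 0.777 FPKM in PDZK1 libraries.

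**Figure D3:**
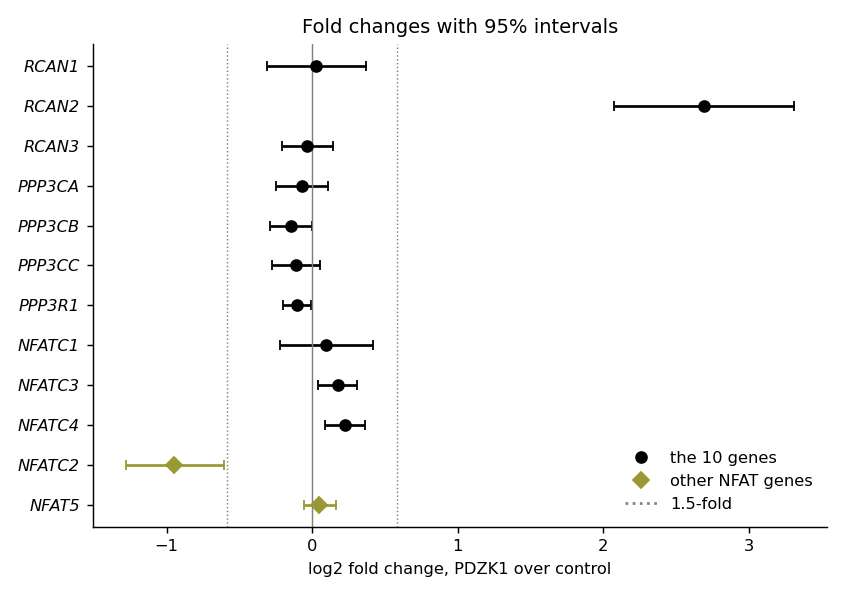
Log2 fold change of PDZK1 over control for each member and for the remaining family genes that were tested, with 95% intervals from the edgeR model and dotted lines at a 1.5-fold change. RCAN2 stands at 2.69, NFATC2 at −0.95 and every other gene between −0.15 and 0.22.

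Across the 10 members, 1 passed the edgeR threshold of an adjusted p under 0.05, and it was RCAN2, while 3.83% of all tested genes passed it. RCAN2 was also the 1 member called by DESeq2, which called 4.98% of the 16341 genes with any count. By limma on log2(FPKM + 1) it was again the 1 member called, beside 1.56% of 12256 genes. These bases differ from the 13645 genes of edgeR. Because RCAN2 led to the choice of the set, nothing is read from the count of members called. Of the members, 5 had a log2 fold change above 0 and 5 below, with a median of −0.002 beside −0.0003 over all tested genes. The groups did not overlap for 4 members (3 higher and 1 lower), beside 23.9% of all tested genes. For 9 of the 10 members the whole 95% interval lay within a 1.5-fold change in either direction, beside 78.4% of all tested genes, so those intervals hold no change larger than that.

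By mean FPKM over the 6 libraries, a level per transcript length, the order was RCAN1 (28.0), PPP3R1 (22.4), PPP3CC (14.6), PPP3CB (14.2), PPP3CA (13.2), NFATC4 (7.15), NFATC3 (4.23), RCAN3 (3.00), NFATC1 (2.57) and RCAN2 (1.32). The ranges over the libraries overlapped between RCAN1 and PPP3R1, among the 3 catalytic genes, and from RCAN3 through NFATC1 to RCAN2. They were separate between PPP3R1 and PPP3CC, between PPP3CA and NFATC4, between NFATC4 and NFATC3, and between NFATC3 and RCAN3. In control libraries RCAN2 was at 0.354 ± 0.139 FPKM, and in PDZK1 libraries at 2.30 ± 0.507 FPKM, near NFATC1 at 2.44 ± 0.312.

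The gene nearest to RCAN2 in pattern was TLR4, the receptor for bacterial lipopolysaccharide, with a Pearson r of 0.998 of log2 CPM over the 6 libraries, among 12619 genes with a mean of at least 1 CPM. KLF2 (r = 0.996), IL18 (0.992), ITM2C (0.990) and TOLLIP (0.990) came next. Their log2 fold changes were 0.56 for TLR4, 0.52 for KLF2, 0.91 for IL18, 0.28 for ITM2C and 0.18 for TOLLIP, all well below that of RCAN2. Like RCAN2, each of these genes was lowest within its group in control replicate 3 and in PDZK1 replicate 2. Among the members, r with RCAN2 was 0.981 for NFATC4, 0.884 for NFATC3, 0.528 for NFATC1, 0.335 for RCAN1 and −0.26 for RCAN3. It was −0.317 for PPP3CC, −0.489 for PPP3CA, −0.798 for PPP3R1 and −0.849 for PPP3CB. These are descriptions over 6 points that share the group split and the libraries, so a gene that separates the groups has a large r whatever its fold change.

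On chromosome 6, none of the 5 tested genes on either side of RCAN2 passed the threshold by edgeR or under any alternative, DESeq2 included, and 2 of the 10 had an unadjusted p under 0.05, beside 17.5% of all tested genes. Their log2 fold changes ran from −0.14 to 0.81 with a median of 0.101, 8 above 0 and 2 below. The nearest on each side were ENPP5 (log2 fold change 0.32, 95% interval 0.08 to 0.56, adjusted p = 0.155) and SLC25A27, a mitochondrial carrier (0.41, 0.17 to 0.64, adjusted p = 0.0689). These were the 2 with an unadjusted p under 0.05, both higher in the PDZK1 group like RCAN2. TDRD6, a germ cell gene, had the highest value at 0.81 from 0.691 and 1.22 CPM (95% interval −0.03 to 1.64).

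**Figure D4:**
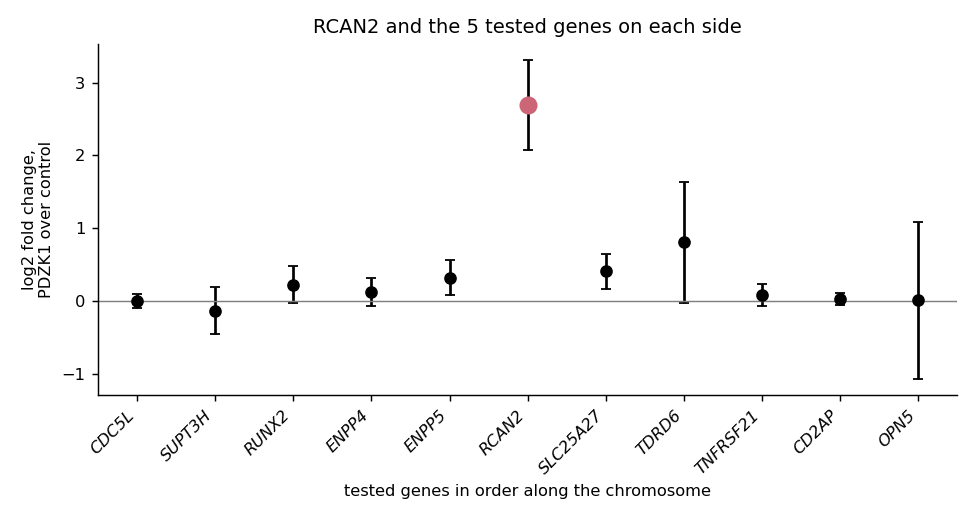
Log2 fold change of PDZK1 over control with 95% intervals for RCAN2 (red) and the 5 tested genes on each side of it, in order along the chromosome. RCAN2 stands at 2.69 and the 10 neighbours between −0.14 and 0.81.

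Each RCAN gene lies near a CLIC gene (chloride intracellular channel proteins) and a RUNX gene (transcription factors), an arrangement left by ancient duplication. Beside RCAN1, CLIC6 fell from 422 ± 19.1 CPM to 355 ± 5.57 CPM (log2 fold change −0.25, edgeR adjusted p = 0.00981), and the call ended without PDZK1 replicate 1 (0.0579), PDZK1 replicate 3 (0.0615) or control replicate 2 (0.0654). RUNX1, in the same neighbourhood, had a log2 fold change of 0.08 (adjusted p = 0.475). Near RCAN2, RUNX2 had 0.22 (adjusted p = 0.35), and CLIC5 was at 0 counts except for 3 in PDZK1 replicate 1. Near RCAN3, CLIC4 had −0.03 (adjusted p = 0.883) and RUNX3 was at 0 counts in all 6 libraries.

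NFAT proteins recognise a short core, GGAAA, and it was searched on both strands in the 250 bases upstream of each transcript start in RefSeq (GRCh38.p14), where it occurred in 55.6% of 35116 windows. RCAN2 had 3 such starts, of which 1 held the core, in 2 places. That window is shown because RCAN2 had the largest difference of the set. It spans chr6:46491450-46491699 on the minus strand, inside the annotated gene, and contains no annotated exon base of RCAN2. Exons of other genes were not searched. The window is printed 5′ to 3′ with the core, or its reverse complement TTTCC, in capitals.
RCAN2 upstream window: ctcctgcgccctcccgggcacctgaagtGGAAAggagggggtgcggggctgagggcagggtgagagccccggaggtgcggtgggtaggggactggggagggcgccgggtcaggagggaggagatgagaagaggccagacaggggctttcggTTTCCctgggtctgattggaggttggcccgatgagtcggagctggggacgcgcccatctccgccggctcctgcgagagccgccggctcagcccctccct
RCAN1 had 6 starts, of which 1, inside the gene at chr21:34526823-34527072, held the core 4 times. In that window 141 of the 250 bases were annotated exon of RCAN1, and some windows of the other genes held exon bases too. RCAN3 held it at 2 of 3 starts, NFATC4 at 1 of 3, NFATC1 at 2 of 2, PPP3R1 at 1 of 1, NFATC2 at 1 of 2 and NFATC3 at 0 of 1. PPP3CA, PPP3CB and PPP3CC were not matched. A match of 5 letters is common and shows no binding.

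Beyond the members, 6 of 82 tested pathway and family genes passed the threshold (2 higher and 4 lower), beside 3.83% of all genes tested (1.41% higher and 2.41% lower). Besides NFATC2 these were ITPR1, PLCB1, JUN, F3 and TNC. On log2(FPKM + 1), limma called 0 of the pathway and family genes it tested. PLCB1 and TNC had a mean under 0.5 FPKM and were not among those. Among 20 genes of calcium sensing and entry, 2 were higher, 8 had an unadjusted p under 0.05 (17.5% of all tested genes did) and the median log2 fold change was −0.017. ITPR1, a calcium release channel of the endoplasmic reticulum, rose from 24.3 ± 0.497 to 30.6 ± 2.64 CPM (log2 fold change 0.34, edgeR adjusted p = 0.0318). PLCB1, a phospholipase that generates the ligand of that channel, was low and rose from 0.584 ± 0.0292 to 1.47 ± 0.35 CPM (1.32, edgeR adjusted p = 0.0481). The ITPR1 call was kept only without control replicate 3 (0.0299), and was lost without any of the other 5 libraries (0.0788 to 0.149). The PLCB1 call was lost without any of the 6 libraries (0.0692 to 0.178) and with the filter of at least 1 count (0.0542). In FPKM the PLCB1 groups overlapped, at 0.368, 0.119 and 0.103 in control and 0.311, 0.278 and 0.172 in PDZK1 replicates 1, 2 and 3, with control replicate 1 the highest, and limma on log2(FPKM + 1) without a filter gave 0.07 (adjusted p = 0.795). STIM1, the calcium sensor of store-operated entry, had 0.14 (adjusted p = 0.18), and its channel partner ORAI1 had −0.12 (adjusted p = 0.478).

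The genes that act on calcineurin and NFAT from outside passed no threshold in edgeR, DESeq2 or limma on FPKM. Of 8 tested inhibitors and anchors, 0 were called and 1 had an unadjusted p under 0.05 (beside 17.5% of all tested genes, here and for the lists that follow), with a median of −0.056. FKBP1A and PPIA, the receptors of the calcineurin-blocking drugs tacrolimus and cyclosporin, had −0.09 (edgeR adjusted p = 0.392) and 0.01 (0.967). Of 16 NFAT kinases and transport factors, 0 were called and 3 had an unadjusted p under 0.05, with a median of 0.003. DYRK1A, a kinase that primes NFAT for export, had 0.06 (adjusted p = 0.494), and GSK3B, which then phosphorylates it, had 0.03 (adjusted p = 0.74). Of 14 other calcineurin substrates, 0 were called and 1 had an unadjusted p under 0.05, with a median of 0.045. TFEB, the lysosomal regulator that calcineurin dephosphorylates, had −0.07 (adjusted p = 0.804).

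Among 10 tested NFAT partner factors, 1 was lower and that same gene was the 1 with an unadjusted p under 0.05, with a median of 0.009. JUN, a subunit of the AP-1 factor that binds DNA with NFAT, fell from 242 ± 3.21 to 218 ± 4.82 CPM (log2 fold change −0.15, edgeR adjusted p = 0.0404). That call was kept only without control replicate 3 (0.0311) and was lost without any of the other 5 libraries (0.0891 to 0.184) and with scaling by library totals only (0.0618). FOS, the other classical AP-1 subunit, was near 1 CPM in both groups, at 0.907 and 0.943 CPM.

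Of 12 tested genes known as NFAT targets in other cells, 2 passed the threshold, both lower, and 7 had an unadjusted p under 0.05. A log2 fold change above 0 was found for 2 of the 12 and below 0 for 10, with a median of −0.499, while 49.9% of all tested genes were above 0. The list was chosen with earlier results of these data known, and its genes share the same libraries, so these counts are a description. F3, tissue factor of blood clotting, fell from 552 ± 24.0 to 462 ± 28.0 CPM (log2 fold change −0.26, edgeR adjusted p = 0.0251), and TNC, the matrix protein tenascin C, fell from 4.67 ± 0.304 to 2.25 ± 0.273 CPM (−1.06, adjusted p = 0.01). The F3 call ended without PDZK1 replicate 1 (0.111), PDZK1 replicate 3 (0.11) or control replicate 2 (0.11), and the TNC call without PDZK1 replicate 3 (0.0549) or control replicate 1 (0.0522). Not past the threshold were the cytokine gene IL6 (−0.91, adjusted p = 0.128), the protease gene ADAMTS1 (−0.53, 0.0846) and the endothelin gene EDN1 (0.76, 0.051), and DESeq2 called all 3. CXCL8, another cytokine, had −0.55 (edgeR adjusted p = 0.34), and PTGS2 and TNFSF10 were at 0 counts in all libraries. Many of these targets also answer to other factors, and no part of NFAT in their values was tested.

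**Figure D5:**
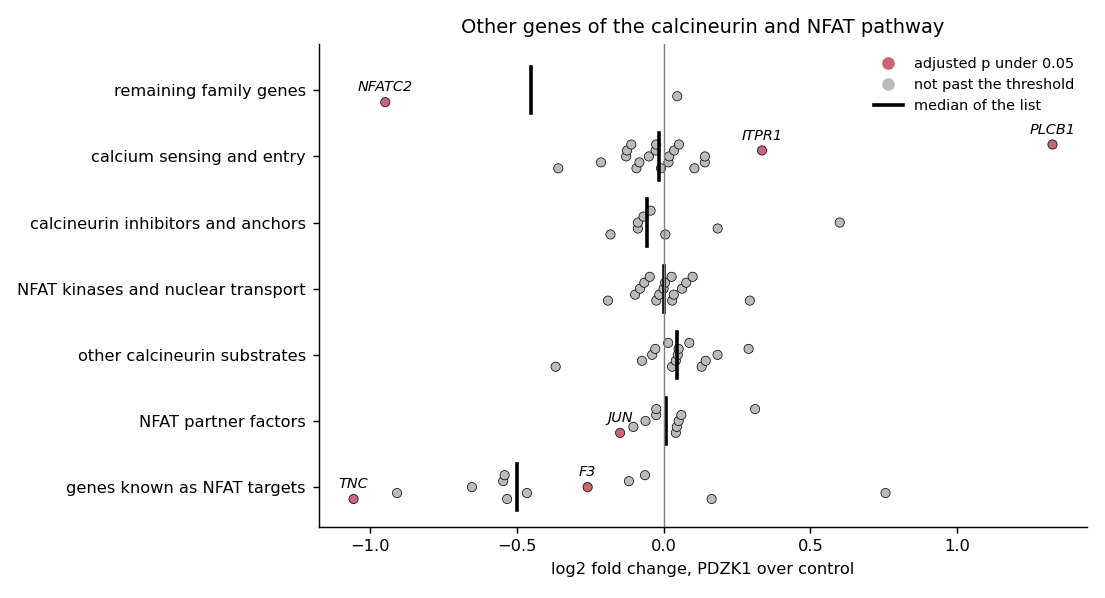
Log2 fold change of PDZK1 over control for each tested gene of the 6 pathway lists and for NFATC2 and NFAT5 (top row), with genes past the edgeR threshold in red and named, others in grey, and the median of each list as a bar. Medians of the pathway lists lie between −0.056 and 0.045 except for the genes known as NFAT targets, at −0.499. All lists were chosen with earlier results of these data known.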

How the data were processed

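RNA-seq libraries had been made from total RNA of 6 ARPE-19 samples with a VAHTS Universal V6 kit. The authors deposited estimated counts per gene as whole numbers and, in a second table, FPKM, which scale fragments by transcript length and library size. The submitters' processing notes name fastp 0.20.1, HISAT2 2.2.1 and GRCh38. The counting program and the use of strand are not given in the sources used here, so overlapping genes may share reads. In each table, 3 further columns of values match none of the 6 samples and were not used. Entries named as assembled loci (0.519% to 0.536% of counts) were left out.

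Groups came from the treatment labels. Genes passing filterByExpr (13645) were scaled by TMM and tested with the robust quasi-likelihood test of edgeR 4.0.16 in R 4.3.3, PDZK1 over control, without covariates, with Benjamini-Hochberg adjustment over all tested genes and a threshold of 0.05. The biological coefficient of variation was 0.1. Intervals are 95% intervals of the model. The labels do not say that libraries came from separate cultures, so p-values measure the spread between these samples, which may be technical.

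The members and gene lists were chosen with earlier results of these data known. Named are the members, the remaining family genes, up to 5 genes of each list past the threshold in each direction, neighbours past it, and the 5 genes with the highest Pearson r with RCAN2 (log2 CPM, prior count 2). Other named genes were chosen after their values were seen. Shared 31-base stretches and coding identity were computed from GENCODE release 29 transcripts. Alternatives were DESeq2 1.42.0, limma 3.58.1 on log2 FPKM (pseudocount 1 or 0.1, mean of 0.5 FPKM or more, or no such filter), RLE scaling, library totals only, a filter of at least 1 count, the replicate number as a block, and each library left out in turn. The test was first run on simulated data.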

Additional observations from a re-analysis of the deposited data

How the results depend on the processing

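RCAN2, which was picked for its difference in this contrast, had log2 fold changes of 1.28 to 2.95 over 14 alternatives and 2.46 to 2.95 with 1 library left out, given as a description. Its share of RCAN transcripts in PDZK1 libraries was 8.06% by CPM, without length scaling. Small differences of other members changed sign. With 1 library left out, RCAN1 ran from −0.100 (without control replicate 3) to 0.124, with −0.043 without PDZK1 replicate 3. RCAN3 had 0.057 on FPKM with a pseudocount of 0.1, 0.044 with a pseudocount of 1, with and without a filter, and −0.081 to 0.027 with 1 library left out (0.010 without PDZK1 replicate 2, 0.027 without control replicate 3). Leaving out 1 library gave −0.142 to 0.019 for PPP3CA and −0.023 to 0.212 for NFATC1, with the values of changed sign, 0.019 and −0.023, again without control replicate 3. NFATC1 had −0.141, −0.106 and −0.106 on FPKM. On FPKM with either pseudocount, the 6 pathway calls became 0, but PLCB1 and TNC fell under the 0.5 FPKM filter and were not tested. They became 1 (TNC) without that filter. With 1 library left out there were 0 to 8 pathway calls. Over all genes, 522 calls became 814 with DESeq2, 187, 184 and 191 on FPKM, and 181 to 875 with 1 library left out (875 without control replicate 3). By library totals only, 517 genes were called, 241 higher and 276 lower, against 193 and 329. The cause of these shifts was not tested.

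Residuals of libraries with the same replicate number had correlations of −0.0462, −0.056 and −0.143. Libraries with different numbers were not compared in this way, so a batch shared across the groups was not tested. A fit with the number as a block called 163 genes in all, 1 pathway gene (NFATC2, log2 fold change −0.95, adjusted p = 0.048) and 1 member (RCAN2, 2.70). Nothing is read from the member count, since RCAN2 led to the choice of the set. The CLIC6 call was lost with the block (adjusted p = 0.0686) and with limma on FPKM without a filter (0.0678). Counts of 23 to 54 reads in control libraries limit the precision of RCAN2.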
